A study of Homo sapiens with 8 samples.

Results

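The replication-dependent histone genes make the H1, H2A, H2B, H3 and H4 proteins that package newly copied DNA. They were taken as every probe set whose platform annotation carries the current or older symbol of one of 54 listed genes. Of these, 48 were measured, each by 1 probe set, among 21448 probe sets in all: 5 of 5 H1 genes, 10 of 13 H2A, 13 of 14 H2B, 8 of 10 H3 and 12 of 12 H4. The other 6 (H2AC7, H2AC16, H2AC17, H2BC15, H3C4 and H3C12) had no probe set named here. The values are log2 expression values from 8 Affymetrix arrays of CCRF-CEM, an established line grown from a human T-cell leukaemia (T-ALL). The 4 untreated arrays and the 4 arrays of cells pretreated for 1 h with 1 µM OICR-9429 all came from cells then held for 1 h in type I collagen at 1.7 mg/mL. OICR-9429 is a WDR5 inhibitor that occupies the site where MLL-type H3K4 methyltransferases dock. The labels mention no solvent for the untreated cells, and they number the biological replicates of each group from 1 to 4 without saying what a number shares, so the p-values cover only the spread among these arrays, which may be technical.

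Most replication-dependent histone genes lie in a large cluster on chromosome 6 (HIST1) and in smaller ones on chromosome 1, and are transcribed mainly in S phase from foci that contain NPAT. Their transcripts end in a conserved stem-loop bound by SLBP instead of a poly(A) tail, and are degraded quickly when DNA synthesis stops. H2A and H2B genes are often arranged head to head and share the DNA between their starts. Members of the H2A, H2B, H3 or H4 class are close to identical in coding sequence. A probe set may thus also have taken signal from a related gene, and values of single genes are uncertain to that extent. In these bulk samples, fewer cells in S phase and less histone RNA per cell cannot be told apart.

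Upstream sequence is shown for the H2B gene that differed most between replicate numbers, for an H2B gene whose head-to-head H2A partner had close differences at numbers 2 and 4, and for the H1, H3 and H4 genes with the largest F statistic over replicate numbers. Each is the 250 bases before the RefSeq start on the gene's own strand in build GRCh38.p14. The octamer ATTTGCAT is in capitals in the H2B genes, the H1 box AAACACA and then the CCAAT box in H1-3, the CCAAT box in H3C1 and the H4 box core GGTCC in H4C9. H2BC14 is at chr6:27814772-27815021 on the plus strand, H2BC8 at chr6:26216689-26216938 on the minus strand, H1-3 at chr6:26234988-26235237 on the minus strand, H3C1 at chr6:26020201-26020450 and H4C9 at chr6:27139032-27139281, both on the plus strand.
H2BC14: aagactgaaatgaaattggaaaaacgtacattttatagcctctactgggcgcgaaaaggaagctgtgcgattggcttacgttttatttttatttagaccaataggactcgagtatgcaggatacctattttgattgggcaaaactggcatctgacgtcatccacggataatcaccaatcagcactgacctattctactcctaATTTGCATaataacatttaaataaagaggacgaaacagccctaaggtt
H2BC8: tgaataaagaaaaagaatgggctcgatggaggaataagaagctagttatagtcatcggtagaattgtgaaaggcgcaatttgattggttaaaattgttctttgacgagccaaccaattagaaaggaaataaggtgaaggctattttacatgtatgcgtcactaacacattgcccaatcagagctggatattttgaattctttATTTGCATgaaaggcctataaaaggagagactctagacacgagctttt
H1-3: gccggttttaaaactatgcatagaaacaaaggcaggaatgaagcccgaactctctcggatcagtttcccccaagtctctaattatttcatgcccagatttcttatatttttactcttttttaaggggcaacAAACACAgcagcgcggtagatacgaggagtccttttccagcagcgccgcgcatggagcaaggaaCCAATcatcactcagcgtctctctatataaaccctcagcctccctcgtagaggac
H3C1: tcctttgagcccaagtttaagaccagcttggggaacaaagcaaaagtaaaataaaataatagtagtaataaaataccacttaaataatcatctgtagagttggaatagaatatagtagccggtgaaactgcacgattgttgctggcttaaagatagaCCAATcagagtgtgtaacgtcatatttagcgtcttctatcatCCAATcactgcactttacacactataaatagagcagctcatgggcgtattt
H4C9: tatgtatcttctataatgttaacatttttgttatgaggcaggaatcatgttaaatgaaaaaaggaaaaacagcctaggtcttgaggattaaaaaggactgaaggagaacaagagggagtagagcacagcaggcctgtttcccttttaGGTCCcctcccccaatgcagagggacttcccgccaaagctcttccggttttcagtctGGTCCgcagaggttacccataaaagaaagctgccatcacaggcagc
The octamer began 48 bases before the start in both H2B genes, the H1 box and CCAAT box 119 and 55 bases before it in H1-3, the CCAAT boxes 93 and 51 bases before it in H3C1, and the GGTCC matches 103 and 46 bases before it in H4C9.

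The motifs followed the classes. Windows of 300 bases (250 before and 50 after the start) were given for 49 of the 54 listed genes and were searched on both strands. The octamer ATTTGCAT, which POU2F1 binds, was in 10 of 12 H2A and 11 of 14 H2B windows, in 1 of 8 H3 windows and in 0 of the 5 H1 and 0 of the 10 H4 windows, against 1.8% of 27305 RefSeq promoters. Head-to-head partners share much of their windows, so the same bases were counted for both genes of such a pair. H3C4 and H2AC7 had the same annotated start, so the same window was counted under both H3 and H2A. AAACACA was in 5 of 5 H1 windows and 1 of 12 H2A windows (5.76% of all promoters), and GGTCC in 10 of 10 H4 windows, where it forms part of the site bound by HINFP (46.1% of all). CCAAT was in every window of the H1, H2A, H2B and H3 genes but in 3 of 10 H4 windows (35.7% of all). TATAAA was in 3 of 5 H1, 9 of 12 H2A, 10 of 14 H2B, 5 of 8 H3 and 5 of 10 H4 windows (12% of all), and the E2F-type TTTCGCGC in 5 H2A, 4 H2B and 1 H3 window (0.546% of all). The motifs have no overlap required or removed between them. A match is a description of the letters present, not a bound site.

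The arrays separated by replicate number over the whole transcriptome, and both arrays of number 4 stood apart: in limma, 26.3% of all probe sets were higher and 25.5% lower there than on the other arrays at an adjusted p under 0.05. Of 17 T-cell markers, 16 were measured and 15 were above the median level of all probe sets (6.45). Of 16 markers of other blood cells and fibroblasts, 13 were measured and 6 were above it, among them CD79A, COL1A2 and HBA1. The mean of the 13 was 5.87 to 6.27 on the untreated arrays and 5.89 to 6.10 on the treated ones. At number 4, 6 of them were higher and 1 lower than on the other arrays (median difference 0.33), and their part in the results below was not tested.

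The probe sets of 45 of the 48 histone genes had a mean signal above the median of all probe sets, and those of H1-1, H3C6 and H4C6 a mean below it. Signals of different probes do not rank genes by abundance. The values of a gene across arrays followed the replicate number more than the treatment. Relative to each gene's own mean, the median of the 48 was -0.05, -0.30, -0.12 and 0.56 on untreated arrays 1 to 4, and 0.03, -0.49, -0.25 and 0.58 on OICR-9429 arrays 1 to 4. Both arrays of number 4 were the highest and both of number 2 the lowest, with the treated array lower within number 2. H2B genes spread most among the classes, from -0.42 to 0.69 on untreated arrays and from -0.75 to 0.76 on treated ones. H1 genes spread least, from -0.19 to 0.30 and from -0.49 to 0.35.

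**Figure D1:**
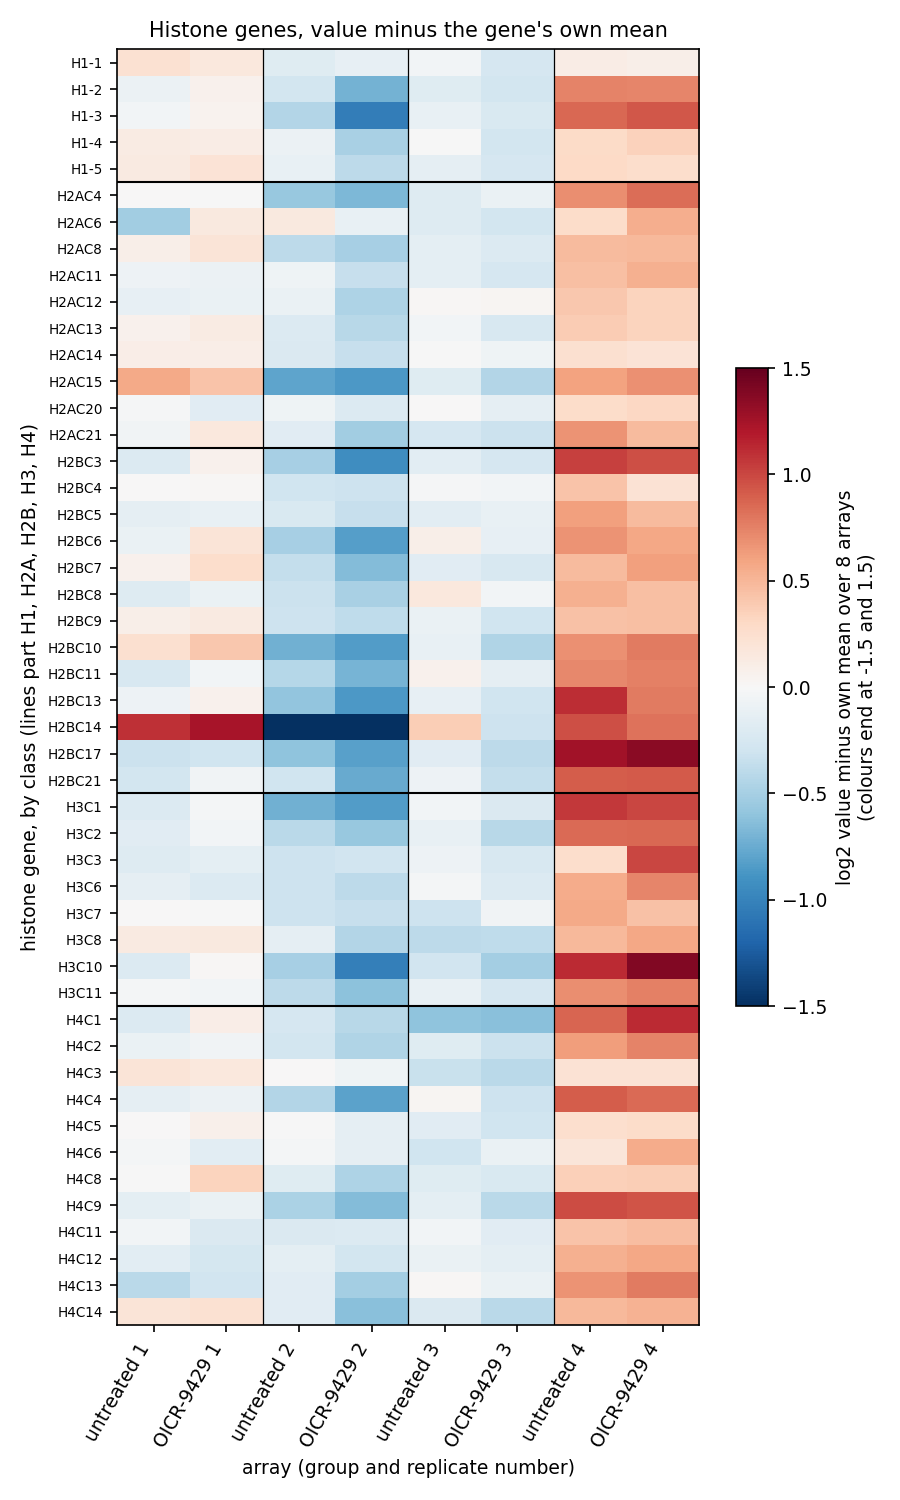
Log2 value of each of the 48 histone genes minus its own mean over 8 arrays, in colour, with genes by class in rows and arrays by group and replicate number in columns. Number 4 columns are high for nearly every gene and number 2 columns low, in both groups, while untreated and OICR-9429 columns of the same number look alike.

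OICR-9429 gave no histone gene a difference that passed the test. In limma without the replicate number, 0 of 48 members had an adjusted p under 0.05 (0% of all probe sets), and 0 had an unadjusted p under 0.05 (0.49% of all). With the replicate number as a block, 0 of 48 passed either threshold, against 5.55% of all probe sets at an unadjusted p under 0.05. In simulated data, the fit without the block recovered 0% of 2-fold changes at the adjusted threshold. The blocked fit recovered 0% of 1.5-fold and 71.9% of 2-fold changes. The adjusted counts of 0 therefore cannot by themselves show that changes of such sizes were absent. The difference, treated minus untreated, ran from -0.26 (H2BC14) to 0.16 (H3C3) on the log2 scale, with a median of -0.06, against 0.005 for all probe sets. It was below 0 for 41 of 48 members and for 48.3% of all probe sets. The 95% intervals of the blocked fit lay between -0.58 and 0.51 over the members, each gene taken alone. They thus fell just short of a 1.5-fold change in either direction. They rest on the pairing by number and were not adjusted for the number of genes.

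The lean below 0 was seen in each class and rested on the pairs numbered 2 and 3. By class, the difference was below 0 in 5 of 5 H1 genes (median -0.10), 8 of 10 H2A (-0.09), 13 of 13 H2B (-0.08), 6 of 8 H3 (-0.05) and 9 of 12 H4 (-0.05). Within replicate numbers, treated minus untreated was below 0 for 13 of 48 members in number 1 (52.5% of all probe sets), 45 in number 2 (47.6%), 42 in number 3 (48.6%) and 18 in number 4 (47.2%). The members' medians were 0.05, -0.20, -0.13 and 0.02. No member (0 of 48) had the same sign in all 4 pairs, against 12.6% of all probe sets, and 0 of 48 had groups that did not overlap, against 0.737%. The members' median was -0.11, -0.02, -0.05 and -0.09 when pairs 1, 2, 3 and 4 were left out in turn, so pair 2 gave the largest part of it. With single arrays left out and the pairing broken, it ran from -0.27 without OICR-9429 array 4 to 0.13 without untreated array 4.

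Treated minus untreated had mostly the same sign over the H2B genes within numbers 1 to 3. In number 1 all 13 were above 0 (median 0.15), in number 2 all 13 were below it (-0.27), in number 3 12 of 13 were below it (-0.20) and in number 4 7 of 13 (-0.06). H1 genes had medians of 0.07, -0.40, -0.12 and -0.01 in the same order, H2A genes 0.01, -0.18, -0.08 and 0.03, H3 genes 0.03, -0.14, -0.18 and 0.08, and H4 genes 0.05, -0.17, -0.13 and 0.04. Every class thus had its median above 0 in number 1 and below 0 in numbers 2 and 3. Differences between classes or between pairs were not tested.

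**Figure D2:**
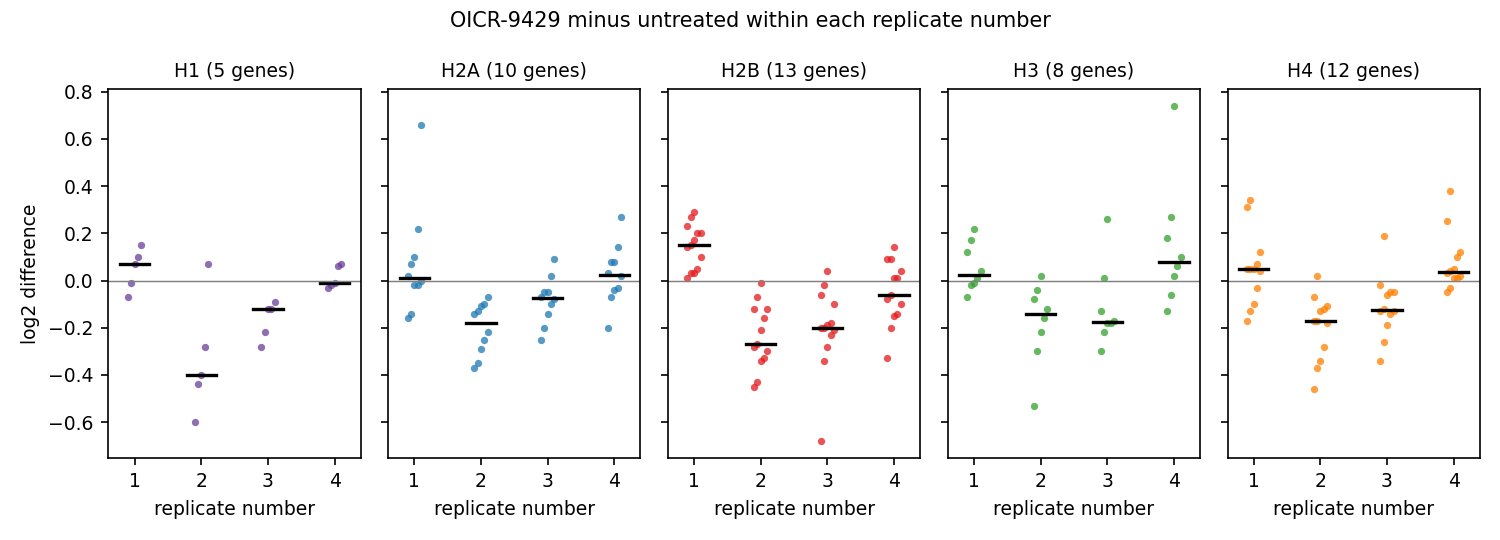
OICR-9429 minus untreated on the log2 scale for each histone gene within each replicate number, 1 panel a class, with points for genes and bars for class medians. Points lie mostly above 0 in number 1 and mostly below 0 in numbers 2 and 3, and they straddle 0 in number 4.

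Linker histones bind the DNA entering and leaving the nucleosome. H1-4, which is among them, had the smallest unadjusted p of all members in limma without the block (0.468). Its difference was -0.16 ± 0.21 (SE of that fit). In the blocked limma fit its SE was 0.11 and its unadjusted p 0.202, and H2BC14 had the smallest p of the members (0.102). H1-4 was at 12.82, 12.61, 12.70 and 12.99 on untreated arrays 1 to 4, and at 12.81, 12.21, 12.42 and 13.05 on treated ones. The groups overlapped, and treated array 2 was the lowest of the 8. H1-5 differed by -0.09 ± 0.20 in the fit without the block.

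For the core histones the differences were as small beside their error in the fit without the block, whose SEs are given here. That error includes the spread between replicate numbers. Over the 48 members the median SE was 0.28 in that fit and 0.11 in the blocked one. H2AC20 differed by -0.10 ± 0.17, H2BC13 by -0.16 ± 0.42, H2BC8 by -0.08 ± 0.25, H3C11 by -0.08 ± 0.32, H4C14 by -0.14 ± 0.28 and H4C4 by -0.18 ± 0.38. H2AC6 (0.15 ± 0.24) and H3C3 (0.16 ± 0.29) had the largest values above 0. H2AC6 stood at 6.90, 7.56, 7.22 and 7.69 untreated and at 7.56, 7.31, 7.14 and 7.96 treated, so the pairs disagreed in sign. H3C3 stood at 7.78, 7.66, 7.90 and 8.23 untreated and at 7.82, 7.68, 7.73 and 8.97 treated. Its number 4 pair differed by 0.74 and stood apart from the others.

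Differences between replicate numbers were much larger. In a limma model with number and treatment, 43 of 48 members differed between numbers at an adjusted p under 0.05, beside 50.3% of all probe sets. Without the number 4 arrays 6 of 48 members passed, beside 13.9% of all probe sets in the same fit. H1-1, H2AC6, H2AC20, H4C5 and H4C6 did not pass on all arrays. The members shared a direction more often than all probe sets did: 46 of 48 had their highest mean at number 4 (43.5% of all probe sets) and 41 their lowest at number 2 (24.7%). Some genes outside the members took the same order, as given below. These tests have 2 arrays a number, so their error is the variation of the drug difference from number to number, not the spread among cultures.

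At number 4, 46 of 48 histone genes were higher than on the other arrays at an adjusted p under 0.05 in limma, and 0 were lower, against 26.3% of all probe sets higher and 25.5% lower. The median difference from the other numbers was 0.75 log2 units, and 0.08 over all probe sets. It was 0.43 for H1 (4 of 5 higher), 0.59 for H2A (10 of 10), 0.98 for H2B (13 of 13), 0.91 for H3 (8 of 8) and 0.70 for H4 (11 of 12). The classes also differed in signal level, which is taken up below. The exceptions were H1-1 (0.14, adjusted p = 0.347) and H4C3 (0.29, adjusted p = 0.0518). With any array or pair left out, 35 to 47 members were past the threshold.

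At number 2 the histone genes were lower: 33 of 48 were lower at an adjusted p under 0.05 in limma and 0 higher, against 11.6% of all probe sets lower and 15.4% higher. The median was -0.47, and 47 of 48 were below 0. The exception, H2AC6 (0.02), was also below 0 after arrays were centred on their medians or quantile normalized. All 48 were below 0 after centring, but after quantile normalization 1 other member was above it and 47 were below. All 13 H2B genes were lower (median -0.75), beside 6 of 8 H3 (-0.56), 6 of 12 H4 (-0.43), 6 of 10 H2A (-0.40) and 2 of 5 H1 genes (-0.39). The number contrasts share arrays, and part of this one came from number 4: without the number 4 arrays the median was -0.30 and 10 members were past the threshold, beside 7.86% of all probe sets lower in that fit. The class medians were then -0.48 for H2B, -0.27 for H3, -0.12 for H4, -0.26 for H2A and -0.28 for H1. Without OICR-9429 array 2 there were 7 members past (2.32% of all probe sets lower) and the H4 median was -0.27, and without OICR-9429 array 1 there were 21 (7.81%).

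At number 1, H2AC15 and H2BC14 were higher and H4C13 lower (2 and 1 of 48, against 10.6% and 6.14% of all probe sets), with a median of -0.04. At number 3, H4C1 was lower (1 of 48, against 0.2% of all probe sets, and 0 higher against 1.18%), with a median of -0.25 and 45 members below 0. Both counts depended on single arrays or pairs. At number 1 the count was 12 of 48 without pair 2, where 15% of all probe sets were higher and 10.6% lower. Leaving out an array of number 1 leaves that number with 1 array. At number 3 the count was 25 of 48 without pair 2, where 9.58% of all probe sets were higher and 3.4% lower. The count was 0 without pair 4 (0.681% and 0.2%) or OICR-9429 array 1 (0.21% and 0.00466%). It was also 0 without untreated array 1 (0.303% and 0.00932%) or 2 (0.476% and 0.0513%). The median at number 3 became 0.04 without pair 4.

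**Figure D3:**
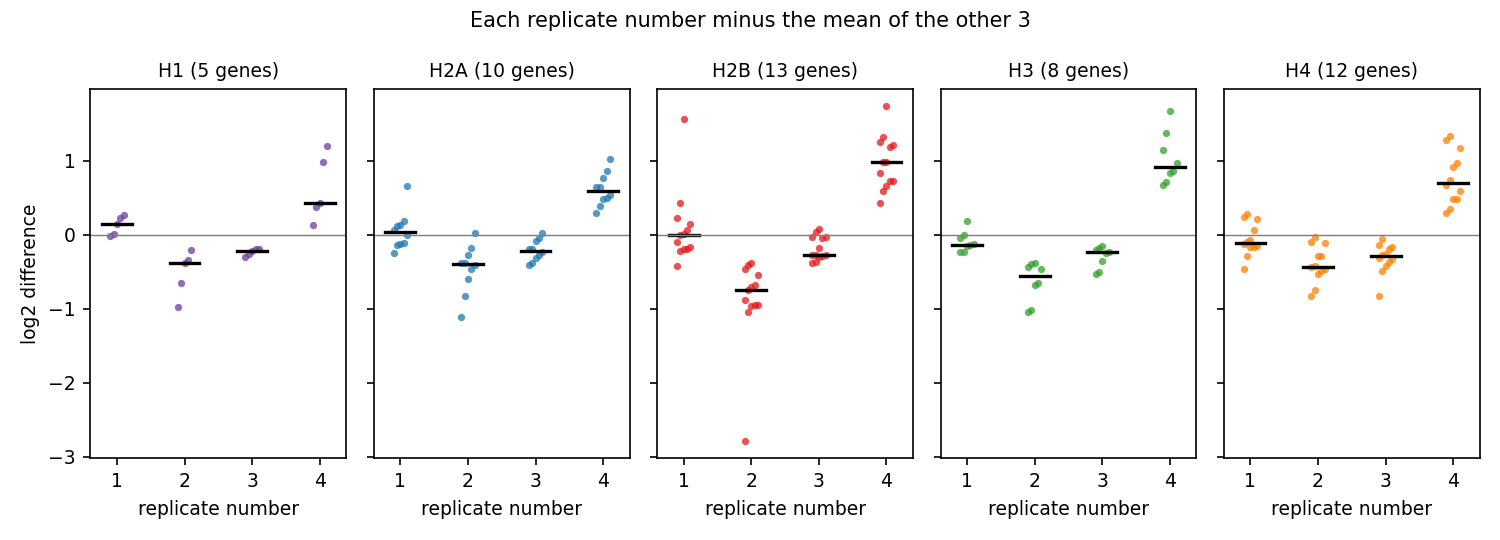
Difference of each replicate number from the mean of the other 3 on the log2 scale, for each histone gene (points) with class medians (bars), 1 panel a class. Number 4 points lie above 0 in every class and number 2 points below 0 but for H2AC6, with the widest spread in H2B, where H2BC14 reaches -2.79.

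H2BC17 had the largest difference at number 4. This H2B gene was at 7.20, 6.92, 7.36 and 8.79 on untreated arrays 1 to 4 and at 7.23, 6.71, 7.13 and 8.88 on treated ones, so both number 4 arrays were above the other 6. The difference was 1.74 ± 0.12 (SE; adjusted p = 4.1e-05, limma), which is 3.35-fold.

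The H3 genes H3C10 and H3C1, which encode the replicative H3 protein, followed the same order. H3C10 was at 8.75, 8.46, 8.67 and 10.07 untreated and at 8.97, 7.93, 8.45 and 10.34 treated, and was 1.67 ± 0.17 higher at number 4 (adjusted p = 0.000156, limma). H3C1 was at 9.68, 9.16, 9.84 and 10.94 untreated and at 9.85, 9.04, 9.66 and 10.88 treated, 1.37 ± 0.12 higher at number 4 and at -1.04 at number 2 (-0.66 without pair 4). In both genes number 4 was highest and number 2 lowest in each group.

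Among the linker histones H1-3 varied most. It was at 11.07, 10.68, 11.01 and 11.98 untreated and at 11.17, 10.08, 10.89 and 12.05 treated. It was 1.20 ± 0.16 higher at number 4 and its difference at number 2 was -0.98 (adjusted p = 0.000458 and 0.00358, limma). H1-2 followed with 0.98 and -0.66. Without OICR-9429 array 2 the number 2 differences were -0.67 for H1-3 (adjusted p = 0.0588) and -0.43 for H1-2 (adjusted p = 0.164), and H1-2 was at -0.37 without pair 4 (adjusted p = 0.14). H1-1, whose probe set was the dimmest of the class, was at 4.60 to 5.09 on all 8 arrays, and no number of it passed the test.

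The H4 genes encode the same protein but did not all vary alike. H4C9 was at 9.60, 9.27, 9.60 and 10.72 untreated and at 9.65, 9.09, 9.34 and 10.69 treated, with 1.28 ± 0.12 at number 4 and -0.75 at number 2. The number 2 value was -0.70 without OICR-9429 array 2 and -0.37 without pair 4 (adjusted p = 0.0587 and 0.0954, limma). H4C1 was at 8.74, 8.70, 8.34 and 9.82 untreated and at 9.05, 8.53, 8.32 and 10.07 treated, so that number 3 was its lowest (-0.82, adjusted p = 0.0326, limma) and number 4 its highest (1.33). The call at number 3 was lost without any of pair 4 (-0.43, adjusted p = 0.222), OICR-9429 arrays 1 and 3 or untreated arrays 1 to 3. H4C6, whose probe set was the dimmest of the class, ran from 4.32 to 5.17 and was 0.49 higher at number 4 (adjusted p = 0.0177). Without OICR-9429 array 4, its highest value, the difference was 0.29 (adjusted p = 0.217), and without pair 3 it was 0.45 (adjusted p = 0.0514).

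H2BC14 stood apart from the other members. It was at 12.32, 9.30, 11.59 and 12.19 on untreated arrays 1 to 4 and at 12.46, 8.96, 10.91 and 12.04 on treated ones. Number 1 was thus its highest and number 2 its lowest, in both groups. At number 2 it was 6.91-fold lower than on the other arrays (-2.79 ± 0.16, adjusted p = 0.00063, limma), while it was 1.56 higher at number 1 and 1.19 higher at number 4. Both of these leaned on the low number 2 values: without pair 2 they were 0.71 (adjusted p = 0.0313) and 0.30 (adjusted p = 0.214, limma), and without OICR-9429 array 1 the first was 1.29 (adjusted p = 0.0514). It also had the treatment difference farthest below 0 (-0.26), with pair values of 0.14, -0.34, -0.68 and -0.15 and a blocked unadjusted p of 0.102 (adjusted 0.841).

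H2AC15 shared part of that pattern. It was at 8.89, 7.53, 8.14 and 8.93 untreated and at 8.75, 7.46, 7.89 and 9.01 treated. Numbers 1 and 4 were both higher (0.66 and 0.86) and number 2 lower (-1.11). Without pair 2 numbers 1 and 4 differed by 0.33 (adjusted p = 0.104) and 0.55 (adjusted p = 0.0117, limma), and the call at number 1 was also lost without either of its arrays. H2AC4, by contrast, was at 10.35, 9.77, 10.15 and 11.04 untreated and at 10.33, 9.67, 10.24 and 11.18 treated, higher at number 4 (1.03 ± 0.11) and near 0 at number 1.

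Genes that start head to head did not always vary together. The RefSeq windows gave 10 such pairs, and in 6 both genes were measured. Among the 10, H3C4 and H2AC7 were each paired with H2BC7 from the same annotated start, and neither was measured. H2BC8 and H2AC8, whose starts are 233 bases apart, differed by 0.66 and 0.64 at number 4 and by -0.54 and -0.59 at number 2, but had opposite signs at number 1 (-0.20 and 0.19) and at number 3 (0.08 and -0.23). In the H2AC14 and H2BC14 pair, 245 bases apart, number 2 differed by -0.38 in H2AC14 against -2.79 in H2BC14, and their number means ranged over 0.51 and 3.26 log2 units. The H2B partner had the larger difference at number 4 in H2BC21 over H2AC20 (1.22 and 0.39), H2BC11 over H2AC11 (0.98 and 0.65) and H2BC13 over H2AC13 (1.26 and 0.48). H2BC4 and H2AC6 differed by 0.43 and 0.54 at number 4 and by -0.40 and 0.02 at number 2. The H2A partner had the higher mean signal in each measured pair, by least in H2AC6 over H2BC4 (7.42 and 7.39). The means were 13.01 for H2AC14 and 11.22 for H2BC14, and 12.38 for H2AC13 and 9.31 for H2BC13. They were 12.45 for H2AC11 and 11.12 for H2BC11, and 11.05 for H2AC20 and 9.96 for H2BC21. Differences between partners, and the part of signal level in them, were not tested.

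**Figure D4:**
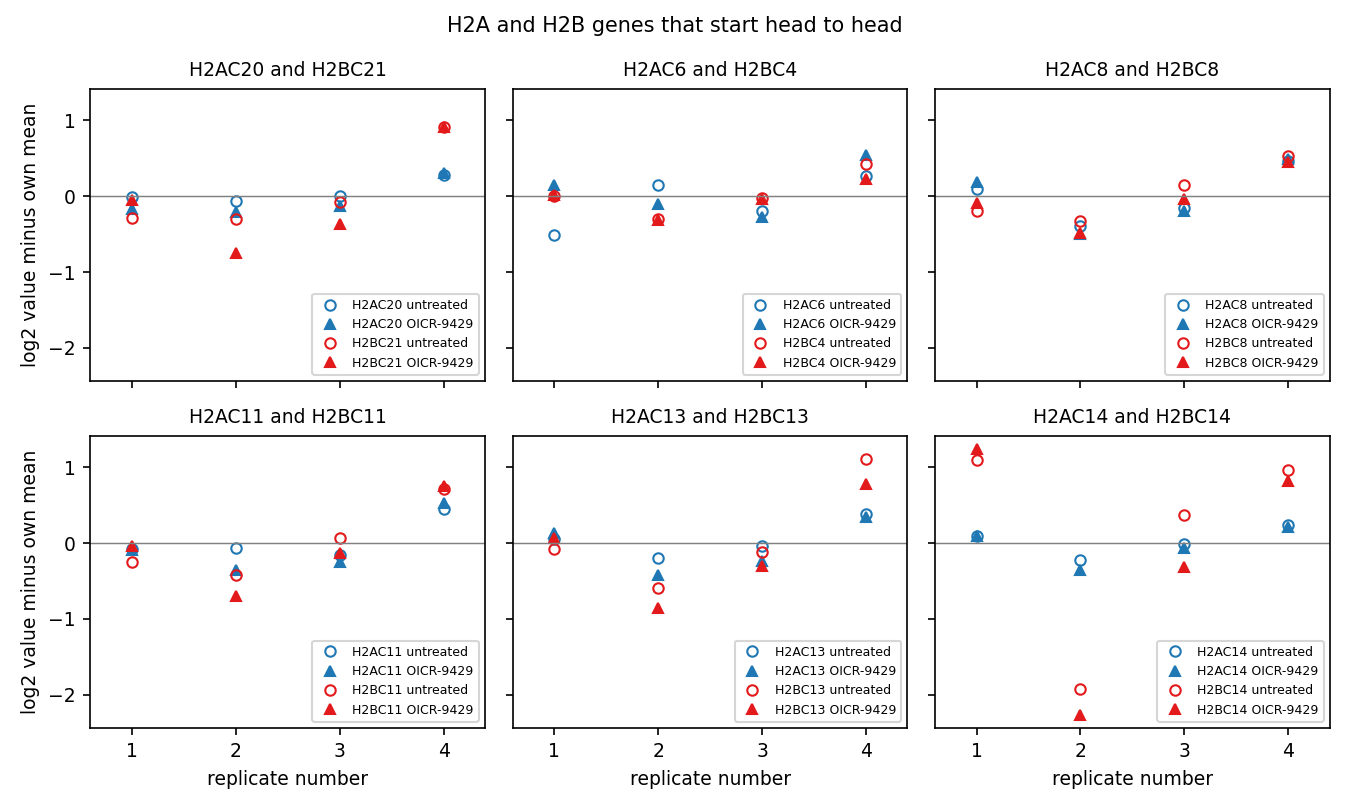
Log2 value minus the gene's own mean against replicate number for the 6 measured head-to-head pairs, 1 panel a pair. The H2BC8 and H2AC8 points lie close together at numbers 2 and 4 and apart at numbers 1 and 3, while H2BC14 falls far below H2AC14 at number 2.

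The medians of genes with and without the octamer in the window lay close together in H2B, and in H2A at number 4 but not at number 2. The 11 H2B genes with it had a median of 0.98 at number 4 and -0.75 at number 2, and the 2 without it (H2BC5 and H2BC13) 0.99 and -0.68. The 7 H2A genes with it had 0.64 and -0.38, and the 2 without it (H2AC13 and H2AC15) 0.67 and -0.76. With 2 genes in a group, these are descriptions. H1-2, H2AC6, H2BC4, H2BC5 and H2BC21, known also to give polyadenylated transcripts, had a median of 0.73 at number 4 (5 of 5 higher), against 0.76 in the other 43 (41 higher). At number 2 the values were -0.40 (4 lower) and -0.47 (29 lower). Cluster made little difference in these medians: 44 HIST1 genes had 0.79 and 4 HIST2 genes 0.72 at number 4, and -0.47 and -0.49 at number 2.

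The size of the differences varied with signal level. The 9 members with a mean above 12 had a median of 0.43 at number 4 (0.29 to 0.65), the 26 between 9 and 12 had 0.97 (0.39 to 1.37), and the 13 under 9 had 0.86 (0.14 to 1.74). The highest value on any array was 13.39. Those with a mean above 12 were H1-4, H1-5, H2AC8, H2AC11, H2AC13, H2AC14, H4C3, H4C5 and H4C11, with no H2B or H3 gene. Class and signal level were thus mixed, and the part of level in the class medians was not tested. Whether the brightest probe sets could still register a difference was not tested.

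Genes that make, process and remove histone mRNA took the other direction at number 4. Of 20 measured genes for histone gene transcription and pre-mRNA processing, 14 were lower and 2 higher in limma (median -0.78). Of all probe sets, 25.5% were lower and 26.3% higher at number 4. NPAT, the coactivator that drives histone genes at S phase entry, was at 8.65, 8.79, 8.65 and 6.92 untreated and at 8.62, 9.01, 8.73 and 6.79 treated. It was 1.89 lower at number 4 and 0.84 higher at number 2, against the direction of the histone genes at both. Without pair 4 its difference at number 2 was 0.24 (adjusted p = 0.245, limma), and without OICR-9429 array 2 it was 0.72 (adjusted p = 0.0512). Its partner CASP8AP2 differed by -1.09 and 0.71 (0.39 at number 2 without pair 4, adjusted p = 0.0929, and 0.64 without OICR-9429 array 2, adjusted p = 0.0786), and CCNE2, a cyclin of the kinase that acts on NPAT, by -2.40 at number 4. HINFP, which binds H4 promoters, was 0.51 higher at number 4 (0.45 without untreated array 4, adjusted p = 0.0703).

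SLBP, which binds the stem-loop, was at 9.80, 9.86, 9.87 and 8.99 untreated and at 9.75, 9.47, 10.28 and 8.90 treated, a difference of -0.89 ± 0.16 at number 4 (adjusted p = 0.00202, limma). Of 14 measured genes for histone mRNA translation and decay, 11 were lower and 2 higher at number 4 (median -0.99). The shares of all probe sets were 25.5% and 26.3%. ERI1, an exonuclease that trims the stem-loop end, differed by -1.82 and XRN1, the main 5′ to 3′ exonuclease, by -1.67. XRN1 was 1.49 higher at number 2, where 7 genes of this list were higher and 2 lower, against 15.4% and 11.6% of all probe sets.

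Genes of DNA replication and S phase were also mostly lower at number 4 (31 of 44 lower, 2 higher, median -0.75), unlike the histone genes that are usually expressed in that phase. PCNA, the replication clamp, differed by -0.78 and CLSPN, a checkpoint adaptor, by -2.45. At number 2, 14 were lower (31.8%) and 7 higher (15.9%), with a median of -0.03. CDT1 (1.255 at number 4 and -0.792 at number 2) and TK1 (0.915 and -0.818) took the order of the histone genes. Of all probe sets, 25.5% were lower and 26.3% higher at number 4, and 11.6% lower and 15.4% higher at number 2. Of 26 genes of G2 and mitosis, 13 were lower (50%) and 8 higher (30.8%) at number 4 (median -0.27). The share higher was near that of all probe sets. At number 2, 10 were higher and 2 lower (median 0.26). CDC20 of this list took the order of the histone genes, with 1.02 at number 4 and -0.95 at number 2. Of 19 histone chaperones, which carry histones to DNA, 12 were lower and 0 higher at number 4 (median -0.43).

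The genes on a list of histone variants split. Whether each of these variants, H2AX included, is expressed only outside replication was not tested. Of 11 measured, 4 were higher and 0 lower at number 4 (median 0.19). The 36.4% higher was near the 26.3% of all probe sets, of which 25.5% were lower. H2AX, which marks DNA breaks when phosphorylated, was at 10.75, 10.17, 10.77 and 11.41 untreated and at 11.02, 9.95, 10.47 and 11.53 treated, with 0.95 at number 4 and -0.93 at number 2, the order of the replication-dependent genes. Without OICR-9429 array 2 the latter was -0.81 (adjusted p = 0.0635, limma). H1-10 differed by 1.05 and -0.57 (-0.25 at number 2 without pair 4, adjusted p = 0.353, -0.39 without OICR-9429 array 2, adjusted p = 0.281, and -0.54 without untreated array 3, adjusted p = 0.062), and H2AJ by 0.87 at number 4. H2AZ1 (-0.13, adjusted p = 0.353) and H3-3B (-0.10, adjusted p = 0.479), which encode the H2A.Z and H3.3 variants, did not pass at number 4. H3-3A had no probe set named here.

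**Figure D5:**
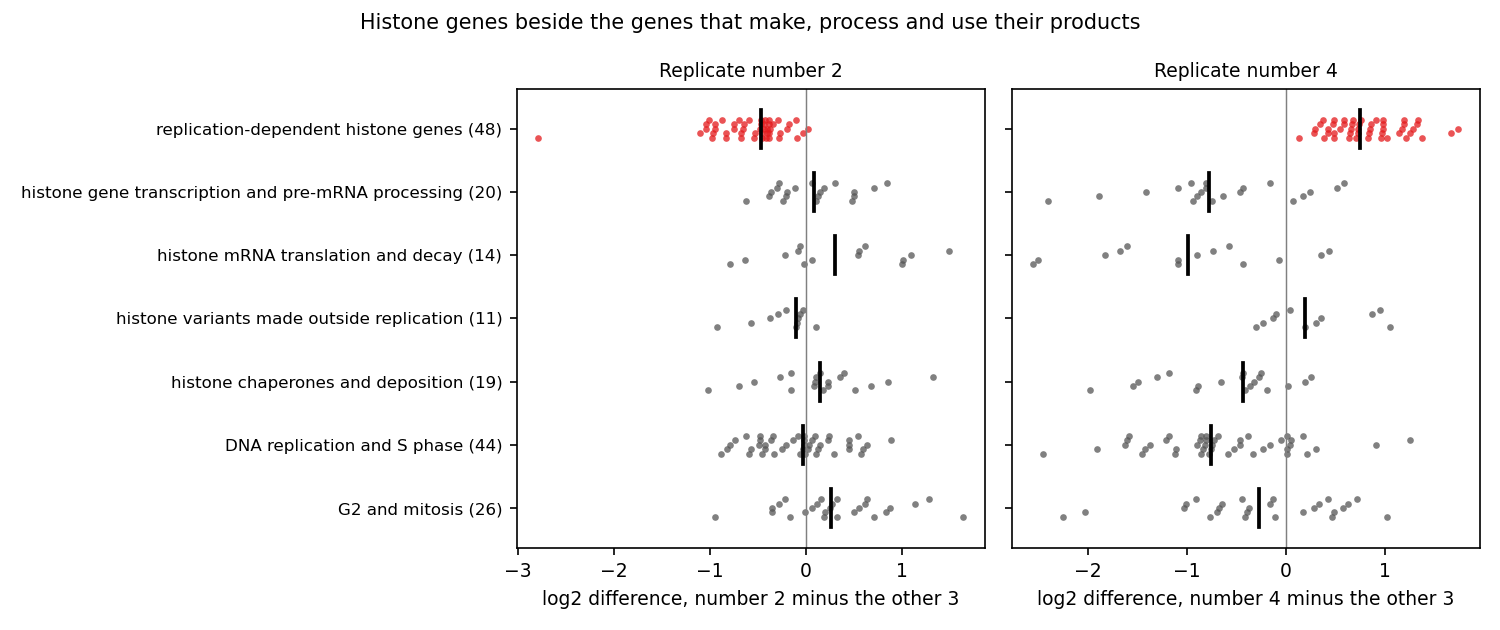
Log2 difference of replicate number 4 and of number 2 from the other 3 numbers, for each of the 48 histone genes and of the genes in related lists, 1 row a list (points) with medians (bars). The histone genes lie to the right of 0 at number 4 and, but for H2AC6 at 0.02, to the left at number 2, while the processing, decay, S phase and chaperone lists lie mostly to the left at number 4.

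Neither these lists nor the drug's target passed for treatment. In limma 0 list genes had an adjusted p under 0.05. The median difference, treated minus untreated, was 0.06 for transcription and processing (16 of 20 above 0), 0.09 for translation and decay (13 of 14 above 0), 0.03 for S phase (29 of 44 above 0) and 0.06 for G2 and mitosis (19 of 26 above 0), against -0.06 for the histone genes. Of all 21448 probe sets, 10951 were above 0. The pairs disagreed: in the same order, the list medians were -0.01, -0.04, -0.03 and -0.07 in pair 1, and 0.04, 0.105, 0.0 and -0.005 in pair 3. In pairs 2 and 4 these lists had medians above 0. WDR5 differed by -0.03, SLBP by -0.03 and NPAT by 0.04. H1-10 differed by -0.30, with an unadjusted p of 0.0461 and an adjusted p of 0.841 in the blocked limma fit.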

How the data were processed

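Expression was measured in 8 samples of CCRF-CEM cells, 4 per group, on Affymetrix arrays after GeneChip WT PLUS labelling, per the labels. The authors deposited log2 values per probe set. RMA and Transcriptome Analysis Console, whose versions were not given, made them, per the submitters' processing notes. Array medians ran from 6.38 to 6.46, and the number of arrays limits the precision.

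Of 21448 probe sets, 17709 had 1 gene symbol, 0 several and 3739 none, with symbols updated by Entrez ID in a RefSeq table of GRCh38.p14. The members and lists were chosen with earlier results of these data known.

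Groups were compared with limma 3.58.1 (R 4.3.3; lmFit and eBayes, two-sided) without covariates, with Benjamini-Hochberg adjustment over all probe sets at 0.05. Replicate numbers were compared in a model with number and treatment (3 residual degrees of freedom), as contrasts of 1 number with the other 3 averaged and by a moderated F over numbers. Numbers come from the titles. Deviations from group means correlated between same-numbered arrays at 0.696, 0.748, 0.566 and 0.865, against at most 0.216 for other pairs, so the numbers pair the samples by a limit of 0.1, and a fit with the replicate block was run.

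In simulated data with 200 changed probe sets among 21448, the treatment fit recovered 0% of 1.5-fold and 0% of 2-fold changes without the block, and 0% and 71.9% with it. The number 4 contrast recovered 84.4% and 97.2%.

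Named members were, in each class, the 2 with the smallest treatment p, the 2 with the largest F and the 1 with the smallest F. In each list the 3 genes with the smallest treatment p and the 3 with the largest F could be named, plus SLBP, NPAT, CASP8AP2, H2AZ1, H3-3A, H3-3B, PCNA and WDR5. Genes of head-to-head pairs, members past at number 1 or 3 and those at the ends of ranges were named after their values were seen. So were members with a mean above 12, CDT1 and TK1. Alternatives were centring arrays, quantile normalization, a level filter, robust trended eBayes, the block and leaving out arrays or pairs.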

Additional observations from a re-analysis of the deposited data

Results flagged for a closer look

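Of 72 groups of 4 values examined, 6 held a value far from the other 3 by Dixon's test. Chance gives about 1 in 20 for unselected, unrelated groups. Many members here were chosen by their F over replicate numbers, and both groups share those numbers, so that rate cannot serve as a measure here. All 6 values came from number 4 arrays. On the OICR-9429 arrays these were H2AC20 at 11.36 (the others at 10.85, 10.88 and 10.92), H3C3 at 8.97 (7.68, 7.73 and 7.82) and H4C6 at 5.17 (4.46, 4.48 and 4.51). On the untreated arrays SLBP was at 8.99 (9.80, 9.86 and 9.87) and NPAT at 6.92 (8.65, 8.65 and 8.79). The median of the H4 genes relative to their own means was 0.51 on untreated array 4 (-0.18, -0.17 and -0.07 on the others).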

How the results depend on the processing

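The count of histone genes past the threshold for treatment was 0 in limma under every alternative run, the replicate block included, and the block changed no call. At number 4, 42 to 47 members passed under other normalizations, a filter on level, or a trended robust variance. At number 1 the count of 3 became 6 among probe sets above the median level and 13 with the trended robust variance; at number 3 the count of 1 became 7 and 16. The cause was not tested. Shares of all probe sets also moved with the arrays used: for any number they were 13.9% without pair 4 and 48.5% without pair 3. With arrays or pairs left out, counts ran from 0 to 12 at number 1, 7 to 37 at number 2, 0 to 25 at number 3, and 6 to 42 for any number.

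The treatment median ran, with arrays left out, from -0.27 to 0.13 for all members, -0.30 to 0.0267 for H1, -0.227 to 0.0721 for H2A, -0.32 to 0.16 for H2B, -0.31 to 0.20 for H3 and -0.26 to 0.12 for H4. Single genes whose treatment difference changed sign ran from -0.19 to 0.0267 (H1-5), -0.02 to 0.28 (H2AC6), -0.44 to 0.19 (H2BC13), -0.25 to 0.0817 (H2BC8), -0.34 to 0.14 (H3C11), -0.15 to 0.28 (H3C3), -0.34 to 0.0433 (H4C14) and -0.49 to 0.0942 (H4C4). With the replicate block, H2AC6 was -0.02 without pair 1 and H3C3 -0.0367 without pair 4, alternatives chosen after seeing the data. At number 2, H2AC6 ran from -0.24 to 0.29, and was -0.0133 with arrays centred on their medians and -0.0375 with quantile normalization; H4C1 ran from -0.81 to 0.0025 and H4C6 from -0.23 to 0.065. Scanner files were not used here, so no background signal was examined, and 1 probe set a gene leaves cross-hybridization between near-identical histone genes unmeasured.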
